A study of Mus musculus with 12 samples.

Results

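This account follows the RNA of glycolysis and of the hypoxia response in a ribosome pull-down aimed at glia of the mouse distal colon. Tissue was taken 48 hours after an enema that causes colitis. The members are 35 genes taken by name: the glucose and lactate transporters, the enzymes from hexokinase to lactate dehydrogenase, the pyruvate dehydrogenase kinases, and the oxygen sensor with its well-known targets. A member was the row whose gene name equals the symbol and whose assembled locus holds an annotated Ensembl transcript, with the highest mean where there were several. That rule found 34 of the 35, out of 24394 symbols in the table. Pkm, the pyruvate kinase, is listed only in a locus merged with a second gene and is described apart. Of the 34, 33 reached 1 FPKM (fragments scaled to transcript length and to library size) in at least 3 libraries and were tested. Slc16a3, the lactate exporter, did not, with a highest value of 1.28 FPKM. Car9 passed that filter with 3 libraries, and Hk2 with its 6 DNBS libraries and 1 saline library.

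All 12 libraries came from C57BL/6 mice with the genotype Sox10::CreERT2+/- / Rpl22tm1.1Psam/J, in which tamoxifen lets Sox10-expressing cells make a tagged ribosomal protein. Tamoxifen citrate was given in the chow at 400 mg/kg over 2 weeks, plain chow followed for 1 week, and tagged ribosomes were pulled down from dissected myenteric plexus. The 4 groups of 3 libraries were DNBS_GR159897, DNBS_Vehicle, Saline_GR159897 and Saline_Vehicle. DNBS mice received 5 mg of dinitrobenzene sulfonic acid, a hapten, in 0.1 ml of 50% ethanol by enema, and saline mice 0.1 ml of saline with no ethanol listed. Effects of DNBS and of its ethanol cannot be told apart. GR159897, which blocks the neurokinin-2 receptor, was injected at 0.5 mg/kg in 0.1% DMSO, and vehicle mice received 0.1% DMSO, daily over 3 days from 24 hours before the enema. In DNBS_GR159897, 1 library is labelled male (2 female), whereas the other groups had 2 labelled male each (1 female). Ages are not in the labels, and nothing in them names a batch. The labels list the libraries as separate replicates without naming litters or animals, so p-values measure the spread between these libraries, which may be technical.

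The glial marker S100b lay between 94.0 and 288 FPKM in 11 libraries, but at 1.17 FPKM in DNBS_GR159897 replicate 1. That library held 1574 FPKM over 12 epithelial markers, against 0.43 to 78.5 FPKM in the others. Sox10 itself had 1.3, 4.63 and 6.79 FPKM in DNBS_GR159897 and 9.04, 184 and 127 FPKM in DNBS_Vehicle, and ran from 15.4 to 248 FPKM in saline libraries. Every DNBS_GR159897 library thus lay below every library of the other groups. Summed enteric glia markers were at 8.94, 132 and 228 FPKM in DNBS_GR159897 and 190, 462 and 264 FPKM in DNBS_Vehicle. Smooth muscle markers (303 to 6761 FPKM over 8 genes) summed higher in every library than enteric glia markers (8.94 to 610 FPKM over 6 genes). Levels below are those of the whole pull-down and cannot be assigned to glia alone. The share of summed FPKM on loci with an annotated transcript was 22.6% to 84.0% in DNBS libraries and 75.4% to 95.1% in saline libraries. Depth per library is unknown, because the files hold FPKM and no counts. In such bulk samples, fewer cells of a type and less RNA per cell cannot be told apart.

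Glycolysis splits glucose into pyruvate in the cytosol, and lactate dehydrogenase can turn that pyruvate into lactate. Several steps have isozymes: Hk1 is the housekeeping hexokinase and Hk2 the inducible one, and Ldha favours lactate formation whereas Ldhb is the form of oxidative tissue. Hif1a encodes the oxygen-regulated subunit of a transcription factor that binds hypoxia response elements beside many of these genes. Its protein is controlled mainly by degradation, which the prolyl hydroxylases Egln1 and Egln3 start when oxygen is present, so RNA levels of Hif1a do not measure its activity. In brain, glia are known for handing lactate to neurons.

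Without colitis the module was led by lactate and triose metabolism. Ldhb averaged 417 ± 122 FPKM over the 6 saline libraries (SD), the highest mean of any member, followed by Aldoa (the muscle-type aldolase) at 259 FPKM, Pgam1 (phosphoglycerate mutase) at 114, Tpi1 (triosephosphate isomerase) at 113 and Ldha at 90.8 FPKM. In the middle stood Pgk1 (phosphoglycerate kinase) at 68.4 FPKM and the mitophagy receptors Bnip3 and Bnip3l at 47.1 and 46.8 FPKM. Hif1a averaged 6.03 FPKM and Hk2 0.57 FPKM. Gapdh, at 20.0 FPKM, stood below its pathway neighbours, but GENCODE lists 77 other genes with a stretch of at least 300 bases that is at least 95% identical to it, so its level is uncertain. The same search found 1 to 4 such genes for Gpi1, Tpi1, Pgk1, Pgam1, Eno1, Ldha, Ldhb, Bnip3 and Bnip3l, and their fragments may be shared too. The transcripts of the Aldoa locus matched 2 GENCODE genes, so Aldoa was left out of this search and its level is uncertain as well.

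**Figure D1:**
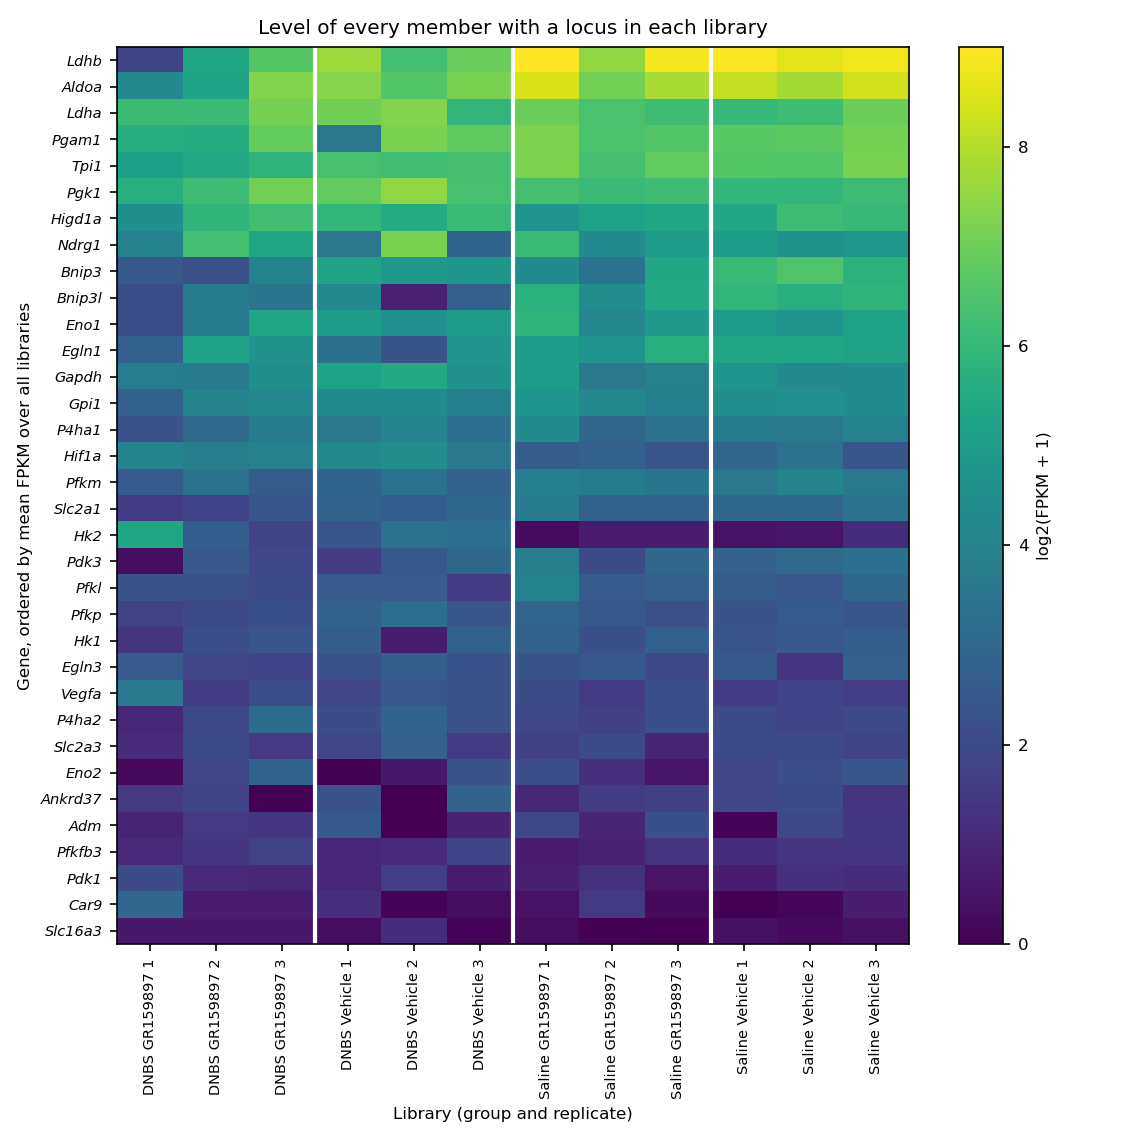
Level of the 34 members with a locus (rows, ordered by mean FPKM) in each of the 12 libraries (columns, by group and replicate), as log2(FPKM + 1). Ldhb tops the order at 417 FPKM on average in saline libraries, and DNBS_GR159897 replicate 1 holds 2.57 FPKM of it.

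With DNBS, averaged over both drug arms, Hk2 and Hif1a rose and Bnip3l and Ldhb fell. These 2 higher and 2 lower members were the calls among 33 tested (limma on log2(FPKM + 1), adjusted p under 0.05 over 12777 genes). Over all genes tested, 2.76% were called higher and 6.83% called lower, and whether the members' share differs from these was not tested. The median log2 change was −0.22 over the members and −0.18 over all genes. With the 6 DNBS libraries set against the 6 saline libraries, 2 members (Hk2 and Hif1a) were higher without overlap and 2 (Bnip3l and Pfkm) lower without overlap, against 1.74% and 4.29% of all genes.

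Hk2, which phosphorylates glucose on the outer face of mitochondria, had 38.5, 5.47 and 2.57 FPKM in DNBS_GR159897 and 4.35, 9.15 and 8.75 FPKM in DNBS_Vehicle, against 0.20, 0.62 and 0.59 FPKM in Saline_GR159897 mice and 0.35, 0.44 and 1.24 FPKM in Saline_Vehicle. Every DNBS library lay above every saline library, and the highest value was that of DNBS_GR159897 replicate 1. The averaged log2 fold change was 2.52 ± 0.48 (SE, limma adjusted p = 0.0122), and without the epithelium-rich DNBS_GR159897 replicate 1 it was 2.02 (adjusted p = 0.00268). In the single arms the change was 2.73 ± 0.68 with the antagonist (adjusted p = 0.0631) and 2.31 ± 0.68 with vehicle (adjusted p = 0.191). Without DNBS_GR159897 replicate 1 the antagonist-arm change was 1.72 (adjusted p = 0.0866).

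Hif1a had 14.9, 13.1 and 14.2 FPKM in DNBS_GR159897 and 16.9, 20.2 and 10.9 FPKM in DNBS_Vehicle. Its saline values were 5.30, 6.20 and 4.26 FPKM with GR159897 and 6.76, 9.34 and 4.32 FPKM with vehicle. Again no DNBS library reached down to a saline one. The change was 1.21 ± 0.27 (adjusted p = 0.0214). It did not pass without Saline_Vehicle replicate 1 (adjusted p = 0.055), Saline_Vehicle replicate 3 (0.0672) or Saline_GR159897 replicate 3 (0.0551). Exons of Hif1a overlap those of Gm49321 on the same strand and of Gm15283 on the opposite one, and the source notes do not say whether strand was used.

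Ldhb, the lactate dehydrogenase subunit of oxidative tissue, had 2.57, 40.8 and 97.0 FPKM in DNBS_GR159897 and 200, 79.2 and 122.55 FPKM in DNBS_Vehicle, against 512, 182 and 468 FPKM in Saline_GR159897 mice and 498, 396 and 444 FPKM in Saline_Vehicle. The highest DNBS library lay above the lowest saline library, so the pooled groups overlapped, while each arm by itself did not. The change was −2.84 ± 0.69 (adjusted p = 0.0267), and −2.14 without DNBS_GR159897 replicate 1 (adjusted p = 0.00639). It missed the threshold without any of Saline_Vehicle replicate 1 (adjusted p = 0.0633), replicate 2 (0.0503) or replicate 3 (0.0661), DNBS_Vehicle replicate 2 (0.0551), and Saline_GR159897 replicate 1 (0.0724) or replicate 3 (0.0605).

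Bnip3l, a receptor that marks mitochondria for removal, had 3.49, 12.4 and 10.1 FPKM in DNBS_GR159897 and 18.4, 0.79 and 5.78 FPKM in DNBS_Vehicle. The saline values were 52.7, 20.4 and 42.0 FPKM with GR159897 and 59.7, 49.0 and 56.8 FPKM with vehicle, so all 6 DNBS libraries were lower than all 6 saline ones. The change was −2.63 ± 0.53 (adjusted p = 0.0136). Assembled loci named Bnip3l but without an annotated transcript held 27.3 FPKM in the epithelium-rich DNBS_GR159897 replicate 1. They held at most 8.08 FPKM in the other DNBS libraries and 3.19 FPKM in a saline one. With these added, that replicate no longer lay below every saline library. The averaged change was then −1.98 (adjusted p = 0.0463). In the antagonist arm it was −0.85 (adjusted p = 0.506), against −2.07 on the tested row.

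None of the 4 passed when the annotated share entered the model as a term, where 68 of the 12777 genes passed, against 1226 without it. Hk2 was then at 1.22 (adjusted p = 0.311), Hif1a at 0.93 (0.265), Bnip3l at −1.32 (0.324) and Ldhb at −0.80 (0.569). Sums of cell type markers are set beside these changes, and in every list the DNBS and saline ranges overlapped. The 6 enteric glia markers with a complete row, of 10 listed, summed to 8.94 to 462 FPKM in DNBS libraries and 279 to 610 FPKM in saline libraries. The 8 neutrophil markers summed to 9.20 to 576 FPKM with DNBS and 0.34 to 12.1 FPKM with saline. Of these 8, Mpo was at 0 in 10 libraries and Cxcr2 in 8. The glial marker Foxd3 was at 0 in 10 libraries, with 53.75 FPKM in DNBS_Vehicle replicate 2 and 19.69 FPKM in DNBS_GR159897 replicate 3. Median sums with DNBS and with saline were 209 and 535 FPKM for enteric glia, and 151 and 0.64 FPKM for neutrophils. For smooth muscle they were 3026 and 3245 FPKM, and for neurons 202 and 201 FPKM. Macrophages had 82.4 and 63.2 FPKM, fibroblasts 70.5 and 60.5, red cells 69.0 and 21.8, epithelium 26.9 and 10.2, and endothelium 3.8 and 0.84 FPKM. The part of these cell types in the changes was not tested.

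**Figure D2:**
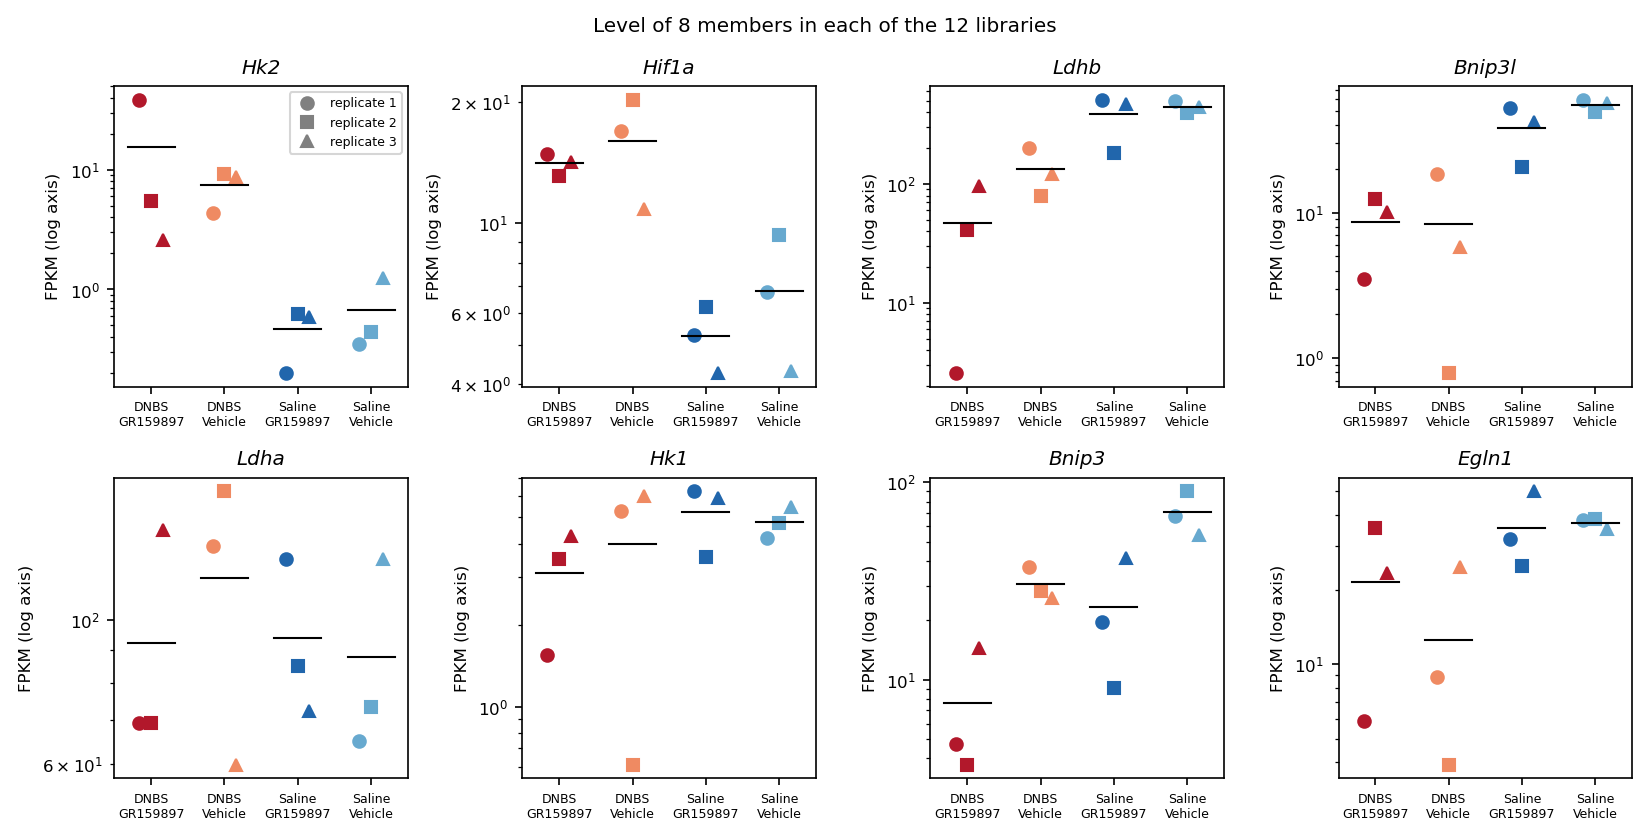
FPKM (log axis) of 8 members in each library, with the 4 groups from left to right and replicates as symbols. Black lines are group means (n = 3). Hk2 and Hif1a are higher and Bnip3l lower in all 6 DNBS libraries than in any saline library, whereas Ldha levels overlap.

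On GRCm38 coordinates of GENCODE, reached through the transcript identifiers, Hk2 (ENSMUSG00000000628) lies on chromosome 6 at 82725025 to 82774454, on the minus strand. Hif1a (ENSMUSG00000021109) lies on chromosome 12 at 73901375 to 73947530, on the plus strand. Ldhb (ENSMUSG00000030246) lies on chromosome 6 at 142490249 to 142507957, minus strand, and Ldha (ENSMUSG00000063229) on chromosome 7 at 46841475 to 46855627, plus strand. Bnip3l (ENSMUSG00000022051) lies on chromosome 14 at 66985239 to 67008877, minus strand. Which build the deposited table used is not stated in its header or the labels.

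The core of a hypoxia response element is ACGTG or GCGTG, and both were searched on both strands in the 250 bases before each RefSeq start (GRCm38.p6). The windows of Hk2, Hif1a, Ldhb and Ldha are shown because Hk2 and Hif1a rose, Ldhb fell, and Ldha is the isozyme partner of Ldhb. Each is written 5′ to 3′ on the gene's strand, with matches in capitals. CACGTG reads the same on both strands and counts as a single stretch. The Hk2 window is chr6:82774455-82774704, that of Hif1a chr12:73907617-73907866, that of Ldhb chr6:142507958-142508207 and the upstream one of Ldha chr7:46845554-46845803.
Hk2: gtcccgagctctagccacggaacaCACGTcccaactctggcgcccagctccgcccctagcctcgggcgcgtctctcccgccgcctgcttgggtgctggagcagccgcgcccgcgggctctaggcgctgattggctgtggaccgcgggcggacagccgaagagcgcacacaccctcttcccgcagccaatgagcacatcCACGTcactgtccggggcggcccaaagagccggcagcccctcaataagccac
Hif1a: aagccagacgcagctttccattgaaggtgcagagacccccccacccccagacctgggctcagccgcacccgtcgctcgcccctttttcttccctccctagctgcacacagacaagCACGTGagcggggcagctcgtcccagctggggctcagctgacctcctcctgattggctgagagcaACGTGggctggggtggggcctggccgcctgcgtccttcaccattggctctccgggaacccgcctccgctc
Ldhb: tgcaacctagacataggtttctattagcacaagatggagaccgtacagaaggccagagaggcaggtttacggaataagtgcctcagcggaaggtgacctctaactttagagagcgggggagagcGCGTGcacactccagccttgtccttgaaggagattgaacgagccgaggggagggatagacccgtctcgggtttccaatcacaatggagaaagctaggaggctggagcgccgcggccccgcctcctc
Ldha: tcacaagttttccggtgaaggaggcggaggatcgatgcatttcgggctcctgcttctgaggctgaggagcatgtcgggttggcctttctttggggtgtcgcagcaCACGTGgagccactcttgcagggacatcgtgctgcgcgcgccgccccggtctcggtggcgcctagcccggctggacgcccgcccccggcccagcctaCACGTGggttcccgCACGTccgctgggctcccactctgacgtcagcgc
Hk2 and Hif1a each held 2 stretches, both with ACGTG, Ldha held 3 with ACGTG, and Ldhb held 1 with GCGTG. RefSeq gave 45 windows for 32 of the 35 members, and 80.0% of them held at least 1 match, against 38.6% of all 32851 windows and 55.5% of the 11005 windows of tested genes. The median GC content was 62.8% in member windows, 52.4% in all windows and 60.0% in those of tested genes. A match is a description of the letters and not a binding site, and members that fell and members that did not pass hold them too.

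The isozyme pairs were compared as ratios within a library, on the log2(FPKM + 1) scale, and as shares of the pair's FPKM. Ldha made up 96.4%, 63.0% and 58.7% of Ldha plus Ldhb FPKM in DNBS_GR159897 and 39.5%, 66.7% and 32.8% in DNBS_Vehicle. The share was 19.6%, 31.8% and 13.4% in Saline_GR159897 and 11.6%, 15.6% and 21.9% in Saline_Vehicle. The lowest DNBS library lay above the highest saline library. The log2 ratio of Ldha to Ldhb was higher by 2.98 with DNBS (exact permutation test within drug arms, two-sided p = 0.005, adjusted p = 0.0125 over 5 ratios), where 0.005 is the smallest p the design allows. Without DNBS_GR159897 replicate 1 it was higher by 2.28 (exact p = 0.01, adjusted p = 0.025).

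Hk2 made up 96.1%, 60.8% and 37.5% of Hk1 plus Hk2 FPKM in DNBS_GR159897 and 45.1%, 93.8% and 59.2% in DNBS_Vehicle, against 3.10%, 14.8% and 9.09% in Saline_GR159897 and 7.69%, 8.46% and 18.6% in Saline_Vehicle. The log2 ratio was higher by 3.08 with DNBS (exact permutation p = 0.005, adjusted p = 0.0125). Loci without an annotated transcript hold 27.9% of the FPKM named Hk1, with 8.26 FPKM in DNBS_GR159897 replicate 3. With such loci added for both genes the ratio was higher by 2.80 (exact permutation p = 0.01, adjusted p = 0.025). In Hk1 itself the log2 change was −0.56 ± 0.37 (adjusted p = 0.349), and in Ldha 0.14 ± 0.38 (adjusted p = 0.846). Ldha had 69.3, 69.4 and 138 FPKM in DNBS_GR159897 and 130, 158 and 59.8 FPKM in DNBS_Vehicle, against 125, 85.0 and 72.5 FPKM in Saline_GR159897 mice and 65.0, 73.5 and 124 FPKM in Saline_Vehicle. These Ldha levels overlapped between the enemas.

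The other 3 ratios did not pass. That of Pfkp (platelet-type phosphofructokinase) to Pfkm (muscle type) was higher by 0.66 with DNBS (exact permutation p = 0.03, adjusted p = 0.05, not under the threshold). It passed without DNBS_GR159897 replicate 2 (0.83, exact p = 0.005, adjusted p = 0.00833). The Slc2a3 to Slc2a1 ratio, of a high-affinity neuronal glucose transporter and the general one, was higher by 0.79 (exact p = 0.075, adjusted p = 0.0938). Loci without an annotated transcript hold 54.8% of the FPKM named Slc2a3. With such loci added for both genes the ratio was higher by 0.70 (exact p = 0.28, adjusted p = 0.35). For Eno1 over Eno2, the general and the neuronal enolase, the difference was −0.27 (exact p = 0.645, adjusted p = 0.645). With 3 libraries against 3 in a single drug arm the exact test cannot go below 0.1. In both arms the Ldha and Hk2 ratios reached that value, at 3.78 and 3.37 higher with the antagonist, and at 2.17 and 2.79 higher with vehicle.

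**Figure D3:**
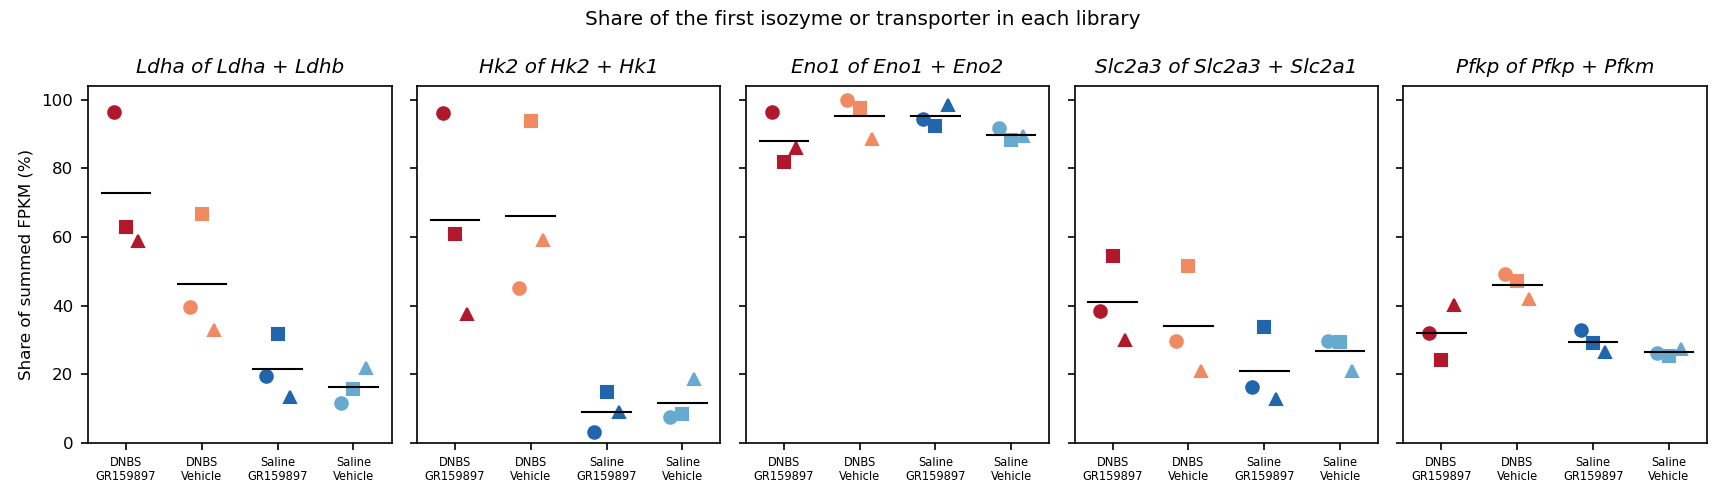
Share (%) that the first gene of each pair takes of the pair's summed FPKM, per library, with the 4 groups from left to right, replicates 1, 2 and 3 as circles, squares and triangles, and group means as black lines. Ldha reaches 32.8% to 96.4% in DNBS libraries and 11.6% to 31.8% in saline libraries, and Hk2 37.5% to 96.1% and 3.10% to 18.6%. Loci without an annotated transcript are not counted.

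The remaining steps of glycolysis gave no call in the averaged comparison. Aldoa had 17.7, 37.6 and 155 FPKM in DNBS_GR159897 and 166, 95.2 and 146 FPKM in DNBS_Vehicle, against 353, 136 and 230 FPKM in Saline_GR159897 mice and 290, 219 and 325 FPKM in Saline_Vehicle. Its log2 change was −1.63 ± 0.50 (adjusted p = 0.0595). Of the fits without 1 library, Aldoa passed only without DNBS_GR159897 replicate 3 (−2.05, adjusted p = 0.0122). It passed in 3 of 11 other settings. These were scaling to the annotated total (limma adjusted p = 0.0348), library weights (0.00342), and no trend and no robust prior (0.0457). The antagonist arm of Aldoa overlapped and its vehicle arm did not. Pfkm had 5.14, 9.27 and 5.31 FPKM in DNBS_GR159897 and 6.52, 9.62 and 6.05 FPKM in DNBS_Vehicle, against 13.5, 11.7 and 10.4 FPKM in Saline_GR159897 mice and 10.97, 15.3 and 11.3 FPKM in Saline_Vehicle. All DNBS values were below all saline values, and the change was −0.75 ± 0.26 (adjusted p = 0.087). Pfkl, the liver-type phosphofructokinase, had 3.95, 3.69 and 3.23 FPKM in DNBS_GR159897 and 4.93, 4.94 and 1.97 FPKM in DNBS_Vehicle, against 14.4, 5.14 and 5.80 FPKM in Saline_GR159897 mice and 5.23, 4.45 and 6.97 FPKM in Saline_Vehicle (−0.68 ± 0.30, adjusted p = 0.164). Its groups overlapped with vehicle and not with the antagonist. Tpi1 had 33.3, 41.9 and 57.4 FPKM in DNBS_GR159897 and 83.2, 75.3 and 80.8 FPKM in DNBS_Vehicle, against 149, 81.0 and 112 FPKM in Saline_GR159897 mice and 97.2, 92.9 and 143 FPKM in Saline_Vehicle (−0.89 ± 0.32, adjusted p = 0.0943). DNBS values of Tpi1 lay below saline values within each arm. Tpi1 passed in 2 of 11 other settings, library weights (limma adjusted p = 0.0121) and no trend and no robust prior (0.0455). Gpi1 (glucose phosphate isomerase), Pgam1 and Eno1 were at −0.43, −0.88 and −0.67, with adjusted p of 0.337 to 0.403. Eno2 and Pfkp were at −0.40 and −0.09 (adjusted p = 0.632 and 0.849). Pgk1 was at 0.50, Pfkfb3 (which makes an activator of phosphofructokinase) at 0.22 and Gapdh at 0.22, with adjusted p of 0.377 to 0.707. The merged Pkm locus had 16.8, 36.5 and 57.2 FPKM in DNBS_GR159897 and 52.2, 70.3 and 47.9 FPKM in DNBS_Vehicle, against 87.5, 26.0 and 34.5 FPKM in Saline_GR159897 mice and 31.0, 33.0 and 52.8 FPKM in Saline_Vehicle. These levels overlapped.

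Among the transporters and the gates of mitochondrial pyruvate, Slc2a1 had 1.93, 2.5 and 4.28 FPKM in DNBS_GR159897 and 6.33, 5.42 and 7.07 FPKM in DNBS_Vehicle, against 11.7, 5.98 and 6.20 FPKM in Saline_GR159897 mice and 7.12, 7.33 and 9.85 FPKM in Saline_Vehicle (−0.75 ± 0.27, adjusted p = 0.0889). Its levels did not overlap in either arm. With loci lacking an annotated transcript added, the change was −0.21 (adjusted p = 0.774), and −0.13 in the antagonist arm. Slc2a3 was at 0.04 (adjusted p = 0.951). Pdk3, a kinase that switches off pyruvate dehydrogenase, had 0.23, 4.72 and 2.75 FPKM in DNBS_GR159897 and 1.96, 4.61 and 7.18 FPKM in DNBS_Vehicle, against 13.0, 3.24 and 7.30 FPKM in Saline_GR159897 mice and 6.06, 7.71 and 8.79 FPKM in Saline_Vehicle (−1.06 ± 0.43, adjusted p = 0.126). These levels overlapped, and Pdk1, a kinase of the same family, was at 0.29 (adjusted p = 0.527). Loci named Pdk1 without an annotated transcript hold 70.4% of the FPKM that carries its name, summed over all libraries. Most of that lay in the epithelium-rich DNBS_GR159897 replicate 1, with 27.4 FPKM there and at most 2.64 FPKM in any other library.

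Among the members known as targets of the hypoxia factor, no gene beside Hk2 and Bnip3l passed. Vegfa, the vascular growth factor, had 11.2, 1.94 and 3.34 FPKM in DNBS_GR159897 and 2.64, 4.49 and 3.72 FPKM in DNBS_Vehicle, against 3.27, 1.89 and 3.46 FPKM in Saline_GR159897 mice and 1.97, 2.49 and 2.11 FPKM in Saline_Vehicle. Its change was 0.51 ± 0.33 (adjusted p = 0.34), and its highest value fell in the epithelium-rich library, as did that of Car9 (carbonic anhydrase, 6.93 FPKM there and at most 1.91 elsewhere). Egln1 had 5.87, 35.5 and 23.4 FPKM in DNBS_GR159897 and 8.89, 3.92 and 24.7 FPKM in DNBS_Vehicle. Against these stood 31.9, 25.0 and 50.0 FPKM in Saline_GR159897 mice and 38.4, 38.6 and 35.1 FPKM in Saline_Vehicle. The change of Egln1 was −1.39 ± 0.48 (adjusted p = 0.0841), and −0.53 with loci lacking an annotated transcript added (adjusted p = 0.368). It passed without DNBS_Vehicle replicate 3 (−1.70, adjusted p = 0.0465). Egln3 was at 0.01 ± 0.30 (adjusted p = 0.984).

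Bnip3, the relative of Bnip3l, was at −1.32 ± 0.42 (adjusted p = 0.0627). It passed without Saline_GR159897 replicate 2 (−1.58, adjusted p = 0.0367) and without DNBS_GR159897 replicate 3 (−1.58, adjusted p = 0.0249). Ndrg1, a stress-responsive gene of growth arrest, ran from 6.39 to 144 FPKM in DNBS libraries and from 19.3 to 68.0 FPKM in saline libraries, a change of −0.12 ± 0.68 (adjusted p = 0.933). Both its lowest and its highest value stood in DNBS_Vehicle. Higd1a, of the mitochondrial inner membrane, was at 0.24. P4ha1 and P4ha2, which hydroxylate proline in collagen, were at −0.35 and 0.29. The vasodilator peptide gene Adm and the ankyrin gene Ankrd37 were at −0.22 and −0.19, and Car9 at 0.50. The adjusted p of these 6 genes ran from 0.46 to 0.82.

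**Figure D4:**
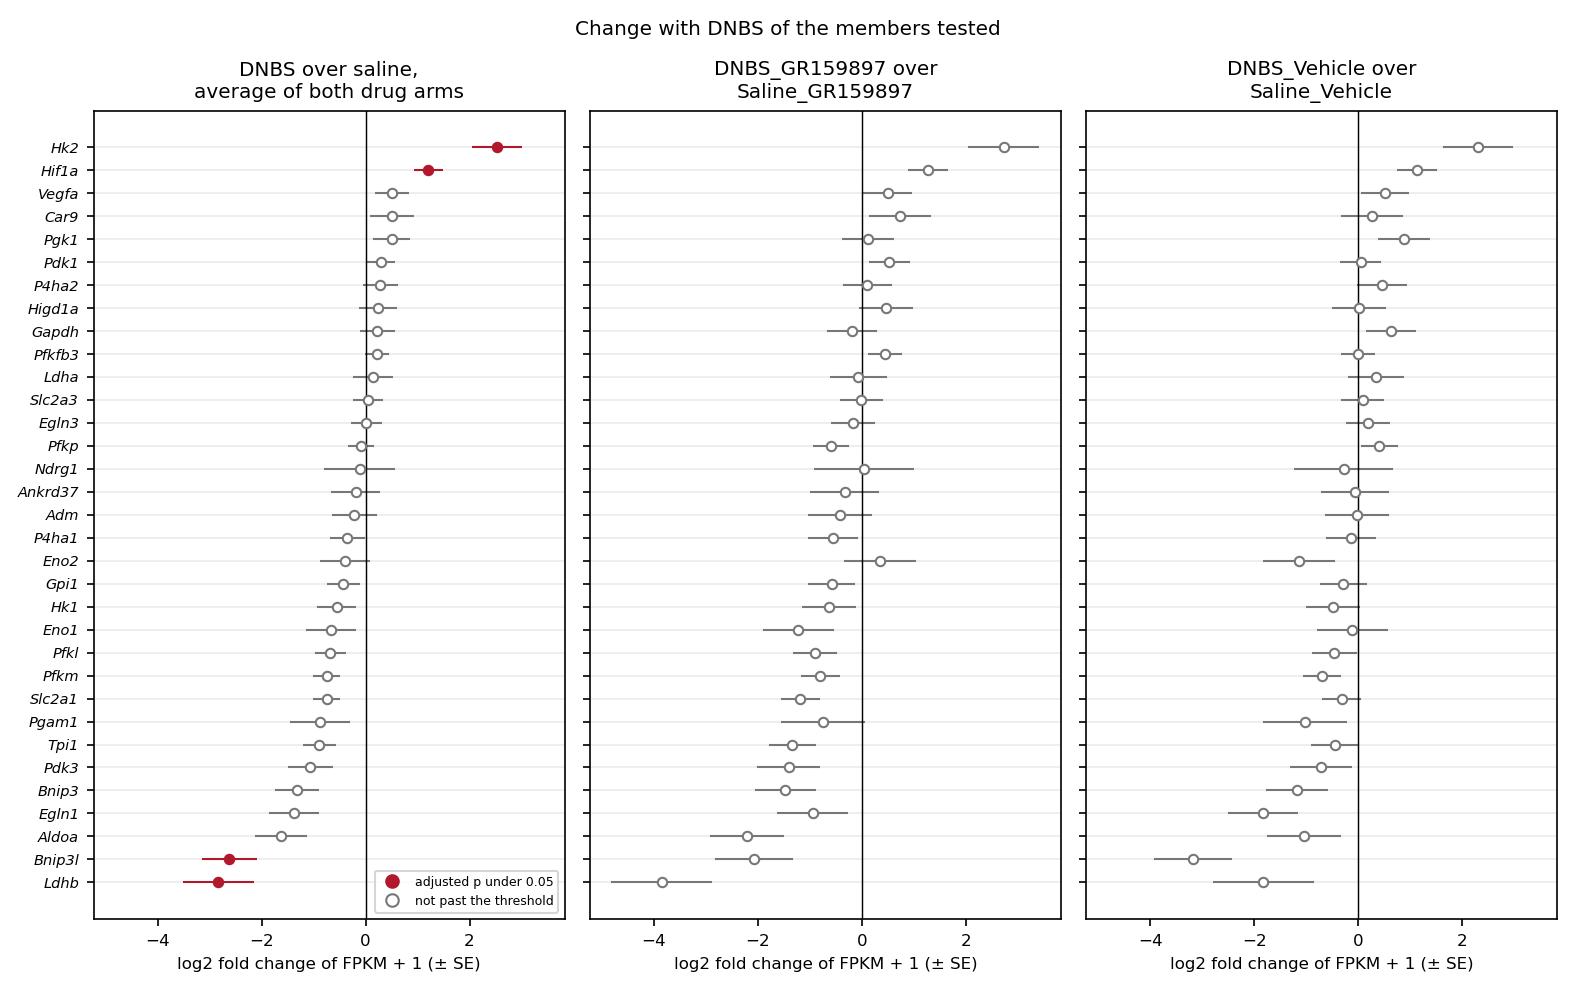
Log2 fold change of FPKM + 1 with its SE for the 33 members tested, in the average of both drug arms (left), the antagonist arm (middle) and the vehicle arm (right). Filled red points passed an adjusted p of 0.05: Hk2 at 2.52, Hif1a at 1.21, Bnip3l at −2.63 and Ldhb at −2.84, all in the averaged comparison.

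Within single arms no member passed. In DNBS_GR159897 over Saline_GR159897 the count was 0 of 33 with limma, against 0.384% of all genes called higher and 0.994% called lower. At an unadjusted p under 0.05 there were 9 members (22.7% of all genes), and 2 members higher and 7 lower did not overlap (6.67% and 17.6% of all genes). In DNBS_Vehicle over Saline_Vehicle the count was again 0, beside 0.235% and 0.0861% of all genes. There 4 members had an unadjusted p under 0.05 (12.6% of all genes), and 5 higher and 9 lower did not overlap (9.53% and 14.9%). The median of the members was −0.42 in the antagonist arm and −0.11 in the vehicle arm, where all genes had −0.27 and −0.11. Without DNBS_GR159897 replicate 1, whose values enter the shared spread, Hk2 (2.31, adjusted p = 0.0191) and Bnip3l (−3.18, adjusted p = 0.0495) passed in the vehicle arm, where 176 of the 12777 genes then passed, against 41 with all libraries. Without DNBS_GR159897 replicate 3, 3 members passed in the antagonist arm: Hk2, Ldhb and Aldoa. There 604 of all genes then passed, against 176 with all libraries.

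A list of 59 further genes of these pathways had 48 tested. Of these, 3 were called higher and 4 called lower in the averaged comparison, beside the same 2.76% and 6.83% of all genes. Among those called higher, Lox, the collagen cross-linking oxidase, was at 2.33 (limma adjusted p = 0.0127) and Hmox1, haem oxygenase, at 1.0 (0.0454). Aldoc, the aldolase of brain and of astrocytes, had 2.15 to 22.5 FPKM in DNBS libraries and 33.4 to 155 FPKM in saline libraries, with no overlap (−3.07 ± 0.50, adjusted p = 0.006). Mxi1, a MYC antagonist, was at −1.71 (adjusted p = 0.00529), Pdk2 at −2.09 (0.0136) and Car12, a carbonic anhydrase, at −1.72 (0.0444). The median of the 48 was −0.26, against −0.18 over all genes.

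The antagonist comparison during colitis, DNBS_GR159897 over DNBS_Vehicle, gave 0 called members of 33, as for all genes (0% called). Of the members 5 had an unadjusted p under 0.05, against 8.13% of all genes. Bnip3 had the smallest p, with 4.71, 3.72 and 14.5 FPKM in DNBS_GR159897 against 37.2, 28.2 and 26.0 FPKM in DNBS_Vehicle (−2.06 ± 0.59, adjusted p = 0.543). With library weights it was at −2.63 (adjusted p = 0.0383). Pfkp had 2.42, 2.94 and 3.56 FPKM in DNBS_GR159897 against 6.33, 8.62 and 4.36 FPKM in DNBS_Vehicle (−0.87 ± 0.35). Gapdh had 12.9, 11.6 and 21.6 FPKM in DNBS_GR159897 against 36.2, 44.0 and 22.7 FPKM in DNBS_Vehicle (−1.11 ± 0.48). With Slc2a1 (−0.94 ± 0.38) and Ldhb (−2.36 ± 0.97) they had an adjusted p of 0.607 each. Without the epithelium-rich DNBS_GR159897 replicate 1, Ldhb was at −0.97 (adjusted p = 1). Slc2a1, Pfkp and Gapdh were then at −0.75, −0.77 and −1.02. The unadjusted limma p of these genes and Ldhb ran from 0.0586 to 0.101. Bnip3 was then at −1.86 (unadjusted p = 0.0104, adjusted p = 0.909). With loci lacking an annotated transcript added, Slc2a1 was at 0.14, and such loci held 20.5 FPKM in DNBS_GR159897 replicate 1 and at most 1.02 FPKM elsewhere. No member was higher and 5 were lower without overlap (3.19% and 6.89% of all genes). Sox10 was lower in every DNBS_GR159897 library (1.3, 4.63 and 6.79 FPKM) than in any DNBS_Vehicle library (9.04, 184 and 127 FPKM). The part of glial content in these differences was not tested.

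Without colitis, Saline_GR159897 over Saline_Vehicle gave 0 of 33 (0% of all genes), with 1 member at an unadjusted p under 0.05 (1.69% of all genes). That member was Bnip3 again, with 19.6, 9.14 and 41.5 FPKM in Saline_GR159897 against 67.6, 90.3 and 54.2 FPKM in Saline_Vehicle (−1.76 ± 0.59, adjusted p = 1). Bnip3 and Higd1a were the 2 lower members without overlap and none was higher (4.18% and 3.04% of all genes). The antagonist change averaged over both enemas, a contrast chosen after these values were seen, put Bnip3 at −1.91 ± 0.42 (limma adjusted p = 0.691). It was lower in all 3 antagonist libraries of each enema than in the vehicle libraries of that enema. In that contrast 0 members passed (0% of all genes) and 1 had an unadjusted p under 0.05 (4.36%). Exons of Bnip3 overlap those of Gm45507 on the opposite strand.

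The interaction term, the antagonist-arm change minus the vehicle-arm change, gave 0 called members (0% of all genes) and 0 with an unadjusted p under 0.05 (3.58% of all genes). Pfkp had the smallest p (−1.0 ± 0.50, adjusted p = 0.957), followed by Slc2a1 (−0.87 ± 0.53) and Eno2 (1.48 ± 0.98). For Ldhb it was −2.03 ± 1.37 (adjusted p = 0.957).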

How the data were processed

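Ribosome-bound RNA of 12 libraries was analysed from FPKM values, deposited by the authors for each library and each assembled locus, per the file headers. StringTie 1.3, HISAT2 2.0, FastQC 0.10.1 and cutadapt 1.10 are listed in the submitters' processing notes, and no build is stated there. Libraries started from 1 ng of RNA, per the labels' protocols. Of 99547 loci, 24432 hold an annotated transcript, and 1 locus was kept per symbol. Testing was limited to the 12777 genes that reached 1 FPKM in 3 or more libraries, and 1 gene with blank values was left out. A coefficient per group was fitted on log2(FPKM + 1) over all 12 libraries with limma 3.58.1 in R 4.3.3 (trended, robust prior, two-sided, Benjamini-Hochberg, threshold 0.05). Fold changes understate those of low genes. The procedure was tested on simulated data. Near-identical genes were sought with blastn 2.17.0 in GENCODE transcripts, and promoter windows are RefSeq's. Hif1a, Vegfa, Slc2a1, Hk2, Ldha and Ldhb, and in each comparison the members with the smallest unadjusted p under 0.05, are given in full and the others by range or change. Members, gene lists and tests were chosen with earlier results of these data known. The values of 1 gene of the further pathway list are not reported here.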

Additional observations from a re-analysis of the deposited data

How the results depend on the processing

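Counts of members past the threshold in the averaged DNBS comparison (4) were within 1.5 times of that under 9 of 11 other settings. They were 0 with the annotated share as a term and 9 with library weights, settings under which 68 and 3009 of the 12777 genes passed, against 1226. With library weights Aldoa, Bnip3, Egln1, Slc2a1 and Tpi1 passed beside the 4. Leaving out 1 library gave 2 to 6, with 2 each without Saline_Vehicle replicate 1, Saline_Vehicle replicate 3 and Saline_GR159897 replicate 3 (464, 397 and 580 of all genes). In the antagonist arm the count was 7 with library weights (2158 of all genes, against 176) and 0 to 3 without 1 library. In the vehicle arm it was 2 with library weights (514 of all genes, against 41), 1 with only the groups compared (110 of all genes), and 0 to 2 without 1 library. In DNBS_GR159897 over DNBS_Vehicle it was 1 with library weights, Bnip3 (69 of all genes, against 0). The median change of members in the averaged comparison was −0.61 with a filter of 5 FPKM, where all genes tested had −0.35. Scaled to the annotated total the members' median was 0.17 in DNBS_GR159897 over DNBS_Vehicle and 0.14 in the interaction, where all genes had 0.11 and 0.15. The median of all genes in the averaged comparison was 0.0041 with median-of-ratios scaling, against −0.18, and the 4 called members passed under both scalings. Ldhb did not pass without a filter (adjusted p = 0.0693). The cause of these shifts was not tested.

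Replicate numbers do not pair the libraries (correlations of same-numbered deviations ran from −0.09 to 0.20, with 2 of 18 over 0.1). With a replicate block the averaged count stayed at 4. As paired differences, the Ldha ratio (2.98) and the Hk2 ratio (3.08) had an exact p of 0.03125, the smallest that design allows, and an adjusted p of 0.0521. In the antagonist and vehicle arms alone (3.78 and 2.17 for Ldha, 3.37 and 2.79 for Hk2) no p under 0.1 can be had. The Eno1 ratio was reversed with a pseudocount of 0.1 (0.32) and in the vehicle arm (1.03). Slc2a1 in DNBS_GR159897 over DNBS_Vehicle was reversed with loci summed (0.14). Without 1 library the ratios ran from 2.28 to 3.35 for Ldha, 2.52 to 3.42 for Hk2, −0.67 to −0.04 for Eno1, 0.64 to 0.97 for Slc2a3 and 0.56 to 0.83 for Pfkp. FPKM without counts leaves the depth behind each value unknown.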
